A study of Mus musculus with 9 samples.

Results

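Thyroid hormone transport and signalling was described in mouse choroid (CH), retinal pigment epithelium (RPE) and photoreceptors (PR) through 8 genes, Tshr, Ttr, Slco1c1, Dio2, Dio3, Thra, Thrb and Crym. They were chosen by their names and with their array values in view, so their own differences between the tissues are given as a description. Where a member is said to lie past a threshold, this places its value in the fit over all probes and is no test of it. Every probe that is not a control and carries one of these names was used, which gave 12 probes out of 39429 and 8 genes out of 31709. Dual-colour Agilent arrays measured 3 samples of each tissue, 9 arrays in all. All samples came from female C57BL/6 mice, of the J substrain by the study's methods, aged 6 months with a range of 2 weeks per the labels, while the study's methods give an age 1 month lower. The mice were healthy by the study's methods, no treatment is named, and each sample was laser dissected from the sections of 1 eye. The labels do not say whether samples of different tissues shared an eye or an animal, so p-values measure the spread between these samples only. The tissue RNA was labelled with Cy5 and hybridised against a common reference of RPE/choroid RNA that was labelled with Cy3, and no array had the dyes exchanged. Values are log2(Cy5/Cy3), so a positive value means more signal in the tissue than in the reference. Levels are compared between tissues at the same probe only, never between probes.

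Thyroid hormone is made under the control of thyrotropin, whose receptor TSHR couples to cAMP signalling in the thyroid. In blood and cerebrospinal fluid the hormone travels on carriers such as transthyretin (Ttr), and it enters cells through membrane transporters such as OATP1C1 (Slco1c1), a thyroxine transporter of the blood-brain barrier. Inside the cell the deiodinase Dio2 turns thyroxine into the active hormone T3, Dio3 inactivates both, mu-crystallin (Crym) binds T3 in the cytosol, and the nuclear receptors Thra and Thrb bind DNA and act on transcription. In the retina, Thrb is known for its part in setting which opsin a cone makes, and Ttr is a product of the RPE that also carries retinol with its partner Rbp4.

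Tshr, Ttr and Slco1c1 had their highest ratios in the RPE, intermediate ones in the CH and the lowest in the PR, although Ttr was saturated in RPE and CH. Thrb ran the other way in part, with the highest values in the PR and the lowest in the CH. Thra differed in order between its probes, Crym had lower values in the RPE than in the CH on every array, and the differences of Dio2 and Dio3 were small. At the thresholds used by the study, a fold change (FC) above 2.5 with a Benjamini-Hochberg (B-H) adjusted p below 0.01 in limma at 1 or more probes, 2 of the 8 genes (Ttr and Slco1c1) were past them as higher in RPE than in CH, beside 0.218% of all genes, and 0 as higher in CH, beside 1.82%. Against the PR, 3 genes were past them as higher in RPE (Tshr, Ttr and Slco1c1; all genes, 11.3%) and 1 as higher in PR (Thrb; all genes, 5.72%). Between CH and PR, 4 were past them as higher in CH (Tshr, Ttr, Slco1c1 and Thra; all genes, 13.2%) and 1 as higher in PR (Thrb; all genes, 6.93%). Since the genes were selected on these same log ratios, nothing is read from these shares. The Ttr value counted between RPE and CH is no measured difference, as its Cy5 was saturated in both. These counts come from a new fit and differ from the study's own list. That list of genes past the thresholds as higher in RPE than in both CH and PR holds Tshr, and neither Ttr nor Slco1c1.

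**Figure D1:**
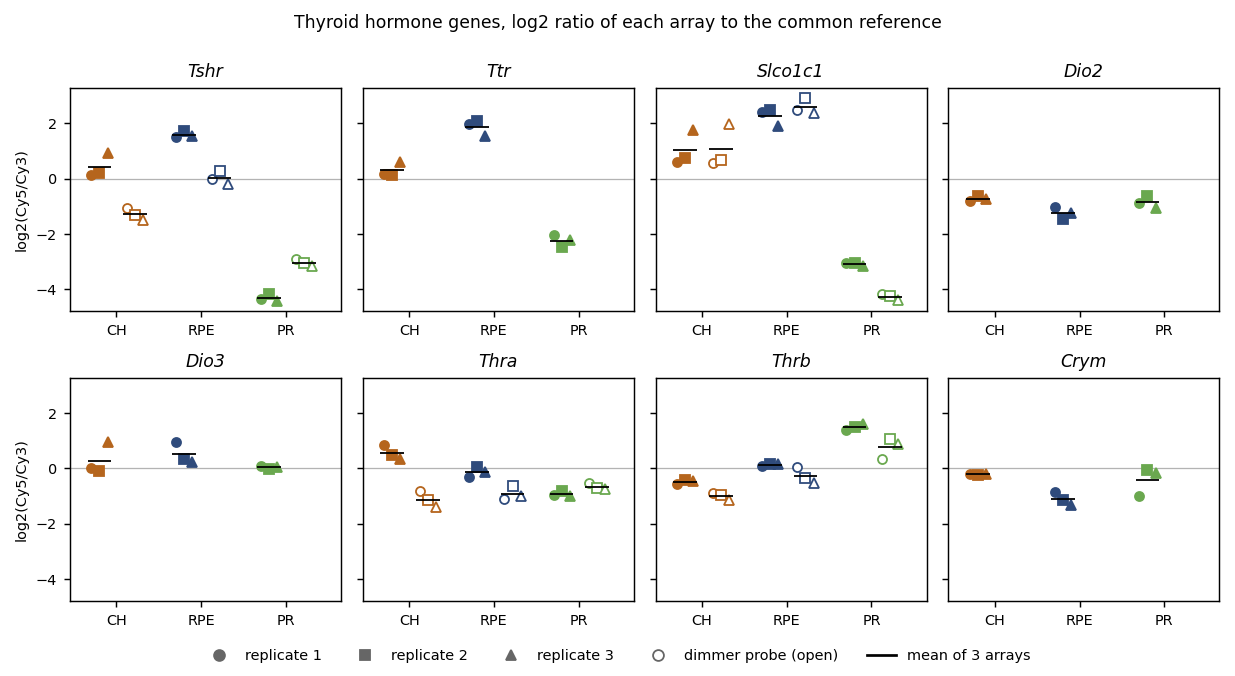
log2(Cy5/Cy3) of the 8 genes on each of the 9 arrays, by tissue. Filled symbols are the reported (brightest) probe, open symbols the dimmer probe where a gene has 1 more, symbol shape is the replicate number and the bar is the mean of 3 arrays. Tshr, Ttr and Slco1c1 fall from RPE to CH to PR, Thrb is highest in PR, and the open and filled symbols of Thra run in opposite orders.

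Sequences of some probes and promoters are shown as a description, and their bearing on these patterns was not tested. Tshr and Thra each had a probe that spans an intron and another in a single block of the genome, and the pairs gave different sizes or orders of the differences, so the intron-spanning oligonucleotides are printed as the array carries them, in lower case because no base is singled out. The Tshr probe lies on mm9 chr12:92743738-92746173 (plus strand) and the Thra probe on mm9 chr11:98617475-98618281 (plus strand), and each is 60 bases long over a genome span of 2436 and 807 bases.
Tshr probe: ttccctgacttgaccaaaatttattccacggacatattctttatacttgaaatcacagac
Thra probe: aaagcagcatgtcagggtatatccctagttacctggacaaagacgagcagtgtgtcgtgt

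The 250 bases before annotated starts are shown for a gene that was highest in RPE (Slco1c1), for both starts of a gene that was highest in PR (Thrb) and for Dio2, a gene whose human and rodent copies are known to respond to cAMP. They are RefSeq sequences on GRCm38.p6. The table also holds Dio3, while Tshr, Ttr, Thra and Crym were not matched. Capitals mark every match on either strand to TGACGTCA (the cAMP response element), GGATTA (the core bound by OTX2 and CRX, transcription factors of RPE and photoreceptors), CACGTG (an E-box of the kind bound by MITF) or AGGTCA (a nuclear receptor half-site), none of which contains another. Over the same 250 bases of 32851 promoters, these letters were held by 1.55%, 6.25%, 6.02% and 14.02%.
Slco1c1, chr6:141524104-141524353, plus strand: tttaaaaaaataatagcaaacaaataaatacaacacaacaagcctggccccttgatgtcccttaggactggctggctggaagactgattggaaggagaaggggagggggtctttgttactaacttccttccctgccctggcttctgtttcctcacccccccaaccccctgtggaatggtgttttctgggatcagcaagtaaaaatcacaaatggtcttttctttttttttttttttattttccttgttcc
Thrb, first start, chr14:17660710-17660959, plus strand: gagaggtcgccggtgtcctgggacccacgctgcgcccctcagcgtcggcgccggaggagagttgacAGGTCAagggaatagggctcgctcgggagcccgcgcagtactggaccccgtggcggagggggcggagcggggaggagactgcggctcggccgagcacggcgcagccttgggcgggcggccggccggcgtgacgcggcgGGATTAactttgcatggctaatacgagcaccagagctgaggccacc
Thrb, other start, chr14:17981394-17981643, plus strand: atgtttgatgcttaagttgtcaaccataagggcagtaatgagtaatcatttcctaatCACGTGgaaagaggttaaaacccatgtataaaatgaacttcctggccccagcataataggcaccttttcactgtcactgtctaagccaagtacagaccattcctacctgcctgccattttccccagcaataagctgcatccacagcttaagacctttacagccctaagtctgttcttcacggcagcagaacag
Dio2, chr12:90739039-90739288, minus strand: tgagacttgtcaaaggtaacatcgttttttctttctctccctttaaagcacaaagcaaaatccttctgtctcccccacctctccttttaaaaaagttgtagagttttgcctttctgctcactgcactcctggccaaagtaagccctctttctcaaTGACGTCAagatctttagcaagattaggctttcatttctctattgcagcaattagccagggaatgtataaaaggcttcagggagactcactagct

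The Dio2 window holds the cAMP response element once, beginning 95 bases before the start. The 2 Thrb windows differ, with GGATTA at 46 and AGGTCA at 184 bases before the first start and CACGTG at 193 bases before the other. The first is rich in CpG, with 30 CpG and 71.6% G or C, against 2 CpG and 44.0% at the other. Both Thrb probes lie close together on mm9 (chr14:18868800-18868859 and chr14:18869432-18869491), and which start each one reads was not tested. No match to the 4 motifs was found in the Slco1c1 window (42.8% G or C, 0 CpG) or the Dio3 window (69.6% G or C, 21 CpG). These matches describe letters and were not tested as sites.

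Each labelled tissue carried its own markers and also some of its neighbours'. Of the 5 RPE markers other than Ttr, Rpe65, Rlbp1, Rdh5 and Lrat passed the thresholds as higher in RPE than in CH, and Best1 was well above background on at most 1 array of a tissue. Rpe65 and Rdh5 were saturated in Cy5 on all 3 RPE arrays, and on 1 and 2 CH arrays. Lrat was saturated on 1 RPE array. Of the rod markers, Gnat1 and Sag were saturated on all 3 PR arrays and Nrl on 2. The pigment cell marker Dct was saturated on all CH and RPE arrays. Differences of such markers are open to that limit. All 6 rod and all 8 cone markers passed the thresholds as higher in PR than in RPE and in CH, and all 6 fibroblast markers as higher in CH than in RPE. Those 4 RPE markers, and all rod and cone markers, were nevertheless well above background on all CH arrays. The rod and cone markers were so on all RPE arrays as well. Their median RPE minus CH difference was 0.57 for rods and 0.30 for cones. On all 3 PR arrays, the same 4 RPE markers were well above background too. So were all 5 pigment cell, all 6 endothelial and all 6 fibroblast markers. Against the PR, markers of vessels and stroma were higher in both other tissues: 5 of 6 endothelial, all 6 fibroblast and all 5 pigment cell markers passed as higher in RPE and in CH. Between 62.05% and 71.25% of probes were well above background in Cy5 on 8 arrays, and 91.68% on RPE replicate 2. Arrays shared 3 slides, the first with CH replicates 1 and 3 and RPE replicates 1 and 3, the second with replicate 2 of each tissue and the third with PR replicates 1 and 3. In bulk samples of this kind, fewer cells of a type and less RNA per cell cannot be told apart.

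The RPE marker list also moved within the CH group. Without Ttr, its mean log2 ratio over the other 5 genes was 0.53 on CH replicate 1, 0.36 on CH replicate 2 and 1.13 on CH replicate 3, beside 1.83 to 2.25 on the RPE arrays. At their reported probes Tshr and Slco1c1 were likewise highest, among CH arrays, on replicate 3. The Ttr ratio was too, but its Cy5 was saturated on every CH array and its Cy3 was lowest on replicate 3. The part of RPE cells in these CH values was not tested.

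Tshr encodes the thyrotropin receptor, a G protein-coupled receptor. At the reported probe (mm9 chr12:92778221-92778280) log2(Cy5/Cy3) was 0.15, 0.23 and 0.93 in CH replicates 1 to 3, 1.51, 1.71 and 1.54 in RPE, and -4.34, -4.16 and -4.43 in PR. All RPE values lay above all CH values and these above all PR values, with CH replicate 3 nearest to the RPE. The means were 0.43 ± 0.43 in CH, 1.59 ± 0.11 in RPE and -4.31 ± 0.14 in PR (SD, n = 3).

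RPE exceeded PR by 5.90 (SE 0.19, FC 59.6) and CH exceeded PR by 4.74 (FC 26.8). The RPE minus CH difference was smaller, 1.15 (SE 0.19, FC 2.23), and lay under the fold threshold. Within the slide that held CH and RPE replicates 1 and 3 it was 0.99, and within the slide of replicate 2 it was 1.49. Without CH replicate 3 it was 1.40, past both thresholds. The study's own array analysis listed Tshr among its mouse RPE signature genes, past these thresholds against both CH and PR. Its semi-quantitative RT-PCR gave the reverse order of RPE and CH, with Tshr highest in the CH.

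The intron-spanning Tshr probe gave the same order with a smaller distance to the PR. Its values were -1.05, -1.31 and -1.49 in CH, -0.03, 0.28 and -0.18 in RPE and -2.92, -3.06 and -3.14 in PR, again without overlap. RPE exceeded CH by 1.31 (SE 0.15, FC 2.47), just under the fold threshold, and PR by 3.06 (FC 8.36). The RPE minus CH difference lay past it without CH replicate 1 (1.42), without RPE replicate 1 (1.33) and without RPE replicate 3 (1.41). On this probe CH replicate 3 was the lowest CH array, not the highest as on the brighter probe. Its Cy5 signal as scanned was 255 to 378 in PR, and it was well above background on every array.

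Ttr encodes transthyretin, the carrier of thyroxine and, with Rbp4, of retinol. Its log2(Cy5/Cy3) was 0.17, 0.15 and 0.62 in CH, 1.97, 2.10 and 1.55 in RPE and -2.05, -2.48 and -2.23 in PR, without overlap. The probe was saturated in Cy5 on all 3 CH and all 3 RPE arrays, so no FC between RPE and CH can be given. From the Cy5 signal after loess and Aquantile, Ttr was at least 2.62-fold higher in RPE than in PR and at least 2.56-fold higher in CH than in PR, bounds that a dye bias could shift, since every array used the dyes in the same roles.

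The channels behind the Ttr ratio behaved unlike those of the other genes. As scanned, the mean Cy5 signal was 592548 to 641279 intensity units in CH and 590917 to 644735 in RPE, the ceiling of the scanner, and 154089 to 334314 in PR, where the spot was not saturated. The Cy3 signal of the reference, the same RNA on every array, was 145342, 129878 and 95268 in CH, 52532, 45775 and 63069 in RPE and 455912, 513411 and 381966 in PR.

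The reference was thus dimmest where the Ttr ratio was highest. Its highest value was 11.2 times its lowest, against 1.17 to 2.34 times at the other 11 probes, with a median of 1.48 over 28730 spots at which the reference was well above background on all arrays. Only 0.435% of those spots had a larger range in Cy3. Since Cy5 was at its ceiling in both RPE and CH, a difference in the tissue channel between them could not be measured. With median centring in place of loess, Ttr no longer lay past the thresholds between RPE and CH. Why the reference signal moved was not tested.

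**Figure D2:**
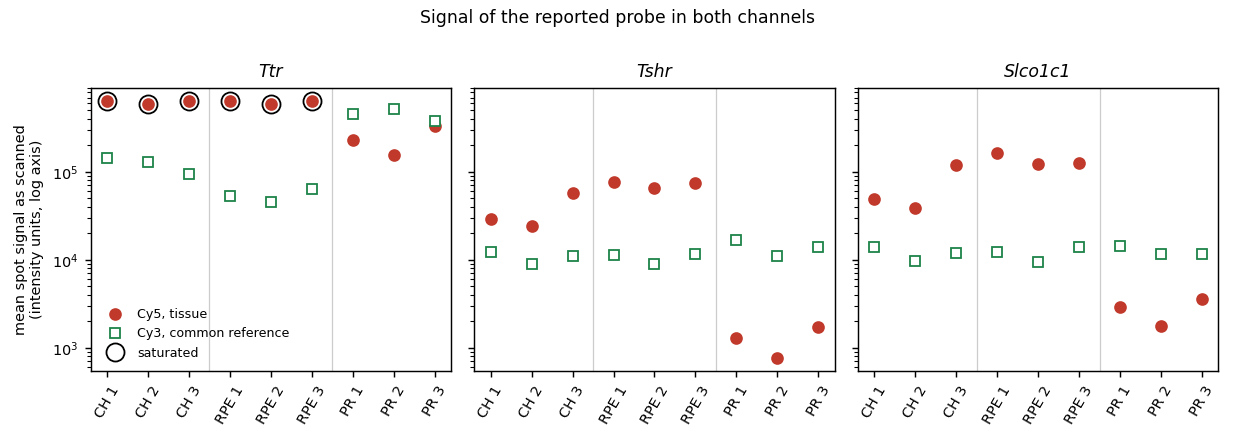
Mean spot signal as scanned (intensity units, log axis) on the 9 arrays for the reported probes of Ttr, Tshr and Slco1c1. Red points are Cy5 (tissue), green squares Cy3 (common reference) and a black ring marks saturation. Ttr is saturated in Cy5 on all CH and RPE arrays while its Cy3 signal runs from 45775 to 513411, and the Cy3 signals of Tshr and Slco1c1 change by 1.89 and 1.55 times at most.

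Slco1c1 encodes OATP1C1, a transporter with a high affinity for thyroxine. At the reported probe (mm9 chr6:141517875-141517934) its values were 0.61, 0.73 and 1.75 in CH, 2.41, 2.47 and 1.93 in RPE and -3.05, -3.06 and -3.17 in PR. The groups did not overlap, but CH replicate 3 came close to the lowest RPE array. The means were 1.03 ± 0.62 in CH, 2.27 ± 0.30 in RPE and -3.09 ± 0.06 in PR (SD, n = 3), and the wide CH spread came from replicate 3.

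Slco1c1 was 41.1 times higher in RPE than in PR (log2 5.36, SE 0.27) and 17.4 times higher in CH than in PR (log2 4.12). Between RPE and CH the log2 difference was 1.24 (SE 0.27, FC 2.36), under the fold threshold. It was 0.99 within the first slide and 1.74 within the second. The endothelial markers, whose cells carry this transporter at the blood-brain barrier, moved with Slco1c1 against the PR. All 6 were well above background on every array, and their mean log2 ratio was 0.67 to 1.43 in CH, 0.98 to 1.16 in RPE and -2.09 to -1.93 in PR. Their median difference was 3.32 for RPE minus PR and 3.07 for CH minus PR, and 0.06 for RPE minus CH, where 0 of them passed. The part of endothelial cells in the Slco1c1 values was not tested.

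The dimmer Slco1c1 probe, which begins less than 1 kb away on the same strand, had larger differences, 1.51 between RPE and CH (FC 2.84) and 6.84 between RPE and PR (FC 115).

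That dimmer probe alone put Slco1c1 past both thresholds against CH. With 1 of the 9 arrays left out in turn, it stayed past them in 1 case, without CH replicate 3 (log2 1.96), where the brighter probe passed as well (log2 1.60). It was not past them with the slide or the replicate number as a block (log2 1.51 in both), nor with median centring (log2 1.31).

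**Figure D3:**
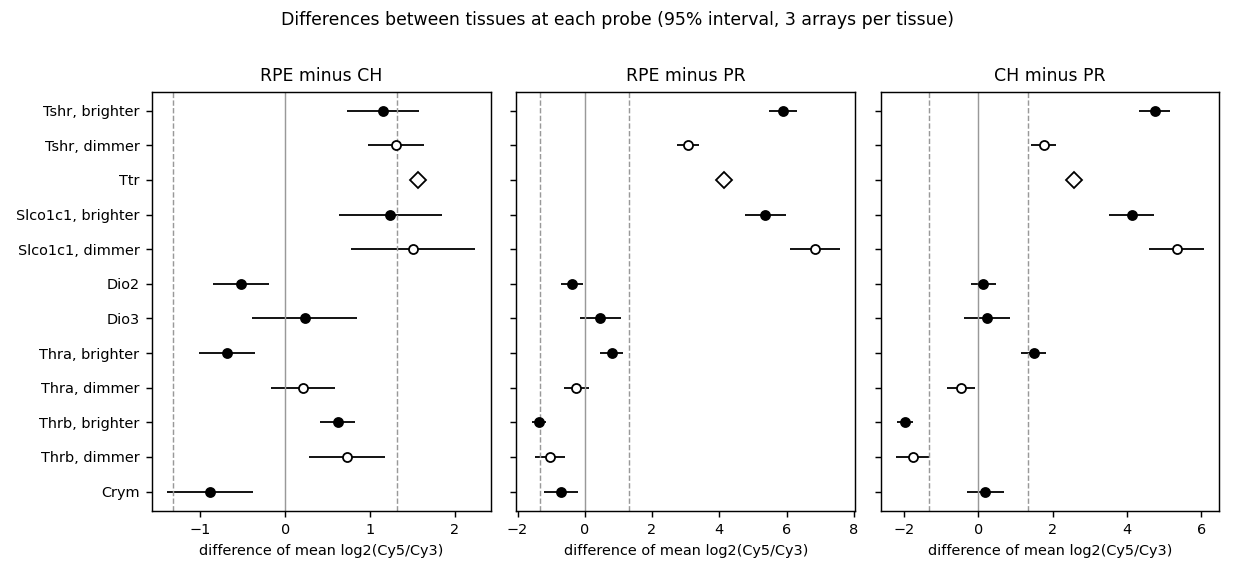
Differences of mean log2(Cy5/Cy3) between the tissues for each of the 12 probes, with 95% intervals from limma over 3 arrays per tissue (filled, brighter probe; open, dimmer probe). Dashed lines mark an FC of 2.5, and Ttr (diamond) has no interval because its Cy5 signal was saturated in CH and RPE. Against the PR, Tshr and Slco1c1 lie far past the lines, and against the CH no probe lies far past them.

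The deiodinases were little different between the tissues. Dio2 (mm9 chr12:91963235-91963294), which activates thyroxine, was -0.81, -0.61 and -0.75 in CH, -1.0, -1.47 and -1.25 in RPE and -0.87, -0.64 and -1.07 in PR. RPE was below CH on every array, by 0.35 within the first slide and 0.86 within the second, and overlapped PR.

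The fitted RPE minus CH difference of Dio2 was -0.52 (SE 0.15, FC 1.43), under the fold threshold. Dio2 and Tshr lie 815 kb apart on chromosome 12 by the positions of their probes, and Dio3 lies 18741 kb further on. Between RPE and CH, Dio2 and Tshr had opposite signs. For CH minus PR both were positive, but the Dio2 difference was only 0.14 and changed sign in 4 alternatives. Any relation between these genes was not tested.

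Dio3, the inactivating deiodinase, gave -0.11 to 0.95 in CH, 0.22 to 0.97 in RPE and -0.01 to 0.08 in PR. The highest CH value was again replicate 3, and RPE and CH overlapped. The RPE minus CH difference was 0.23 (SE 0.28) and the interval ran from -0.39 to 0.85. Its Cy5 mean was 260 to 389 units as scanned in PR. Without CH replicate 3 the CH minus PR difference of 0.23 became -0.10.

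The receptor genes went different ways. Thrb, which encodes the receptor needed for green opsin in cones, was -0.57, -0.41 and -0.46 in CH, 0.07, 0.17 and 0.16 in RPE and 1.38, 1.51 and 1.61 in PR at the reported probe. The 3 groups did not overlap and each had an SD of 0.12 or less. PR exceeded CH by 1.98 (FC 3.95), and the RPE minus PR difference was -1.36 (SE 0.09, FC 2.57).

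The RPE minus PR difference of Thrb lay close to the threshold, and without PR replicate 3 it no longer passed. RPE exceeded CH by 0.62 (FC 1.53), and by 0.63 and 0.58 within the slides, with the part of photoreceptor RNA not tested. The dimmer probe kept this order, with -0.89, -0.96 and -1.16 in CH, 0.04, -0.35 and -0.52 in RPE and 0.35, 1.08 and 0.87 in PR. Its RPE minus PR difference was -1.04 (FC 2.06), under the fold threshold, but -1.37 with the slide as a block and -1.44 with median centring, both past the thresholds.

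Thra encodes the other nuclear receptor and, by alternative splicing, a form that does not bind T3. At the reported probe (mm9 chr11:98626356-98626415) it was 0.86, 0.50 and 0.33 in CH, -0.31, 0.05 and -0.11 in RPE and -0.97, -0.80 and -0.98 in PR. CH was highest and PR lowest without overlap. CH exceeded PR by 1.48 (FC 2.80), and RPE lay 0.80 above PR and -0.69 from CH.

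The intron-spanning Thra probe ran in the opposite order. Its values were -0.83, -1.16 and -1.40 in CH, -1.12, -0.65 and -0.99 in RPE and -0.52, -0.72 and -0.76 in PR, so that PR was highest and CH lowest, without overlap between those. Its CH minus PR difference was -0.46 (SE 0.17) against 1.48 at the other probe. In the RefSeq table, Nr1d1, a gene of the circadian clock that is known to run against Thra on the opposite strand, overlaps Thra. The probes carry the same transcript accession in the files, and which transcripts each one read was not tested. The intron-spanning probe lies upstream of the other, and the study labelled RNA from its downstream end. The part of RNA integrity in these differences was not tested either.

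Crym, the T3-binding protein of the cytosol, was -0.22, -0.24 and -0.19 in CH, -0.86, -1.14 and -1.31 in RPE and -1.0, -0.07 and -0.15 in PR (mm9 chr7:127329970-127330029). It was lower in RPE than in CH on every array, by 0.89 (SE 0.22), with -0.88 and -0.90 within the slides. RPE and PR overlapped through PR replicate 1 alone. Crym was also the gene whose PR arrays spread most, with an SD of 0.51.

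Over the 8 reported probes the groups did not overlap in 7 genes between RPE and CH (87.5%), 6 between RPE and PR (75%) and 5 between CH and PR (62.5%), beside 38.76%, 58.15% and 61.67% of all genes. The members' median difference was 0.42 for RPE minus CH, 0.63 for RPE minus PR and 0.86 for CH minus PR, beside 0.03, -0.01 and -0.05 over all genes. As with the counts above, nothing is read from these values because the genes were selected on them. The 7 genes between RPE and CH include Ttr, whose Cy5 was saturated in both.

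The genes most like each member were those with the smallest root mean square difference of centred log2 ratios over the 9 arrays, for the 5 members whose tissue means spanned more than 1. For Tshr they were Tes, Nid2 and Adra2c, with differences of 0.08, 0.14 and 0.18. For Ttr they were Cltrn, Col9a3 and Car14 (0.17 to 0.21), and for Slco1c1 they were Slc16a9, Cpxm2 and Slc6a13 (0.17 to 0.18). For Thra they were Tex33, Slc8a2 and Plac9a (0.08 to 0.11), and for Thrb they were Prss38, Dnajc12 and Ccpg1os (0.10). Likeness here describes a pattern over 9 arrays of 3 tissues and has no test. For Ttr it matches ratios whose Cy5 was saturated in CH and RPE, so it does not describe Ttr levels.

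The rest of the pathway was read from a list of 81 genes in 8 roles, of which 80 had a probe and 65 were well above background on all arrays of a tissue. limma called 3 of the 80 as higher in RPE than in CH and 2 as lower, beside 0.218% and 1.82% of all genes. It called 21 as higher in RPE than in PR and 6 as lower (all genes, 11.3% and 5.72%), and 24 as higher in CH than in PR and 8 as lower (all genes, 13.2% and 6.93%). The median difference over the list was 0.02, 0.19 and 0.23 in these comparisons, beside 0.03, -0.01 and -0.05 over all genes. The comparisons share arrays, so their counts are not independent.

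**Figure D4:**
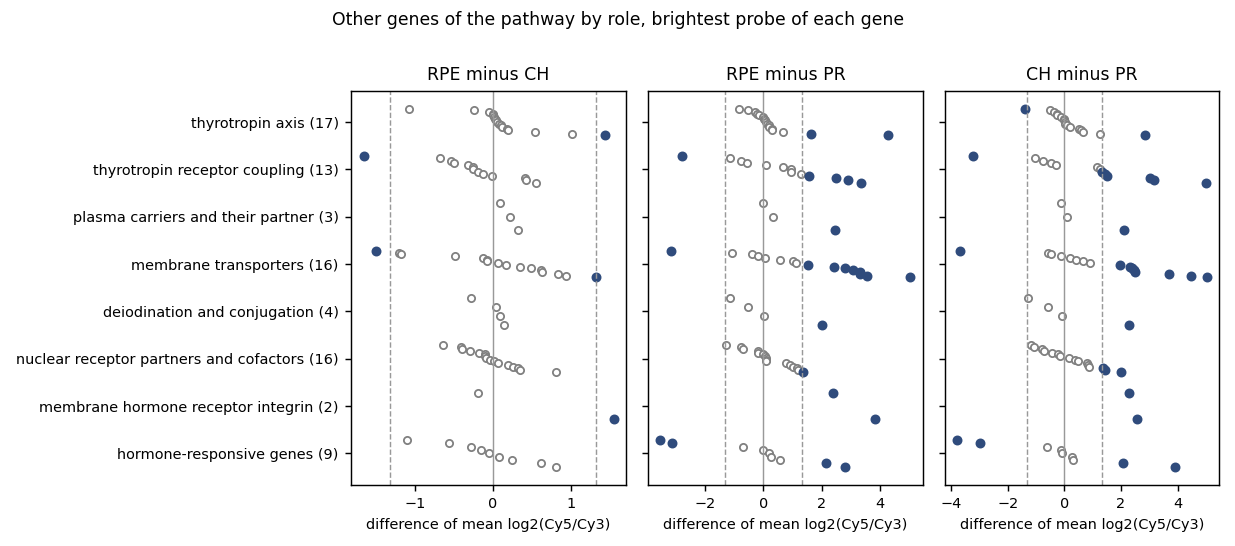
Differences of mean log2(Cy5/Cy3) for the 80 other genes of the pathway by role, with the number of genes in brackets, at the brightest probe of each gene (3 arrays per tissue). Filled points were called by limma at that probe and dashed lines mark an FC of 2.5. The membrane transporters hold the most genes called higher in RPE than in PR (8) and in CH than in PR (8).

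In the thyrotropin axis, Trhde, the enzyme that degrades thyrotropin-releasing hormone, was highest in the RPE as well. It was 0.90, 0.85 and 1.39 in CH, 2.19, 2.68 and 2.58 in RPE and -1.61, -1.82 and -1.96 in PR. RPE exceeded CH by 1.44 (SE 0.18, limma adjusted p = 0.000664), a call lost with median centring (1.26), and PR by 4.28 (limma adjusted p = 5.12e-08). Of the other 16 genes of the axis, which are mostly thyroid and pituitary products, limma called 0 between RPE and CH and 1, the iodide transporter Slc5a5, as higher in RPE than in PR (FC 3.06). At an unadjusted p below 0.05, 3 genes of the axis, Trhde included, were higher in RPE than in CH and 1 was lower.

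Downstream of the receptor, 13 genes of G proteins, adenylyl cyclases and Creb1 were all detected. The adenylyl cyclase Adcy7 was the only one called between RPE and CH, where it was lower in RPE by 1.66 on the log2 scale (difference -1.66, SE 0.13, limma adjusted p = 0.000115). Against the PR, Adcy7 was higher by 3.33 in RPE and by 4.99 in CH. Adcy1, the calmodulin-stimulated cyclase of neurons, was higher in PR than in RPE by 7.04 times (limma adjusted p = 4.73e-07). Probes of Gnas, which encodes the stimulatory G protein and several imprinted transcripts, went opposite ways, with RPE minus PR differences of 2.5 and -1.36 at called probes.

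Among plasma carriers, albumin (Alb) and thyroxine-binding globulin (Serpina7) were well above background on 1 RPE array and no CH or PR array. Rbp4, the retinol carrier that binds Ttr, did not pass between RPE and CH, with a difference of 0.32 (SE 0.13, limma adjusted p = 0.101). It was higher in RPE than in PR by 2.45 (limma adjusted p = 1.93e-07).

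Membrane transporters were the role with most calls. Slco1a4, an organic anion transporter of the blood-brain barrier, was 0.15, -0.10 and 0.35 in CH, 1.35, 1.56 and 1.47 in RPE and -3.46, -3.68 and -3.59 in PR. RPE exceeded CH by 1.33 (FC 2.51, limma adjusted p = 0.000201), barely past the fold threshold, and it exceeded PR 32.9 times. The call against CH was lost in 7 alternatives, among them median centring (1.13) and leaving out CH replicate 2 (1.21), RPE replicate 2 (1.28) or RPE replicate 3 (1.32). Slco2b1 ran the other way between RPE and CH, at -1.49 (SE 0.10, limma adjusted p = 6.07e-05) and -1.50 at its probes. Against the PR, its brighter probe was higher by 3.54 in RPE and by 5.04 in CH.

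Other transporters did not pass between RPE and CH. Slc16a10, which encodes MCT10, had an RPE minus CH difference of -1.21 (SE 0.11, limma adjusted p = 0.000145) that stayed under the fold threshold. Slc7a5, the large neutral amino acid transporter LAT1, differed by -0.08 between RPE and CH and by 2.43 between RPE and PR at the brighter probe, while its other probe showed 0.14 between RPE and PR.

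The transporter Slco3a1 and the NF-kappaB partner Bcl3 were among the genes furthest above PR in CH, by 4.49 and 3.91. A single transporter was called higher in PR than in both other tissues. Slco4a1, an organic anion transporter that carries T3, was 2.14, 2.13 and 2.46 in PR, -0.65, -1.01 and -1.16 in RPE and -1.63 and -1.23 in CH, where the spot on replicate 3 had an outlier mark and was left out. PR exceeded RPE 9.10 times (limma adjusted p = 6.35e-07).

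Deiodination and conjugation held 4 measured genes. Dio1, the deiodinase of liver and kidney, had an RPE minus PR difference of -0.55 (limma adjusted p = 0.00077), well under the fold threshold. Sult1a1, a sulfotransferase, was higher in RPE than in PR by 2.01 (FC 4.02, limma adjusted p = 6.41e-07). Secisbp2, needed to insert selenocysteine into deiodinases, had -1.15 for RPE minus PR (FC under 2.5), and Sult1b1 was well above background on 0 arrays.

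For the integrin that binds thyroid hormone at the cell surface, both subunits were called higher in RPE and in CH than in PR. Itgav was also higher in RPE than in CH, by 1.55 (FC 2.92, limma adjusted p = 0.000259). Its values were -0.53, -0.96 and -0.36 in CH and 0.95, 0.80 and 1.04 in RPE. The dimmer Itgav probe was not called between RPE and CH, and gave 2.91 for RPE minus PR and 1.64 for CH minus PR. Itgb3, called against the PR at its brighter probe only, differed by -0.19 between RPE and CH (limma adjusted p = 0.33).

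Of 16 receptor partners and cofactors, limma called 0 between RPE and CH, where 4 were higher and 5 lower at an unadjusted p below 0.05 at 1 or more probes. Rxrg, the retinoid receptor that pairs with Thrb in cones, had similar values in the 3 tissues, between 0.36 and 0.96 at its brighter probe (RPE minus PR -0.02, limma adjusted p = 0.937). Med1, a mediator subunit, was called higher in PR at 1 of 4 probes only (RPE minus PR -1.46).

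Among 9 hormone-responsive genes limma called 0 between RPE and CH, where 2 were higher and 2 lower at an unadjusted p below 0.05. The opsin genes Opn1mw and Opn1sw, which are cone markers as well, were higher in PR than in RPE by 11.6 and 8.86 times (limma adjusted p = 2.36e-08 and 2.76e-05). Klf9, a direct target of the T3 receptors in many tissues, had a difference of -0.69 between RPE and PR (limma adjusted p = 0.00426) and of -0.56 between RPE and CH (limma adjusted p = 0.0296), both under the fold threshold.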

How the data were processed

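Total RNA of CH, RPE and PR was amplified and labelled by the authors, and the deposited Feature Extraction files (Agilent Feature Extraction 9.5.3.1, with R 2.14.0 and limma in the submitters' processing notes) give each spot's mean signal and median local background as intensity values as scanned. The log ratios in these deposited files are on a log10 scale, with the tissue over the reference. A table of the series, also deposited, gives the tissue channel on a log2 scale (correlation with the log2 Cy5 signal between 0.99777 and 0.99819 per array), normalized by steps not given in the sources used here. Both served as alternatives. Each array has 43020 spots that are not controls.

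Background was corrected with normexp (offset 50), log2(Cy5/Cy3) was normalized by loess within arrays, control and outlier-marked spots were left out, and spots of a probe were averaged. A mean per tissue was fitted to the 9 arrays (limma 3.58.1, R 4.3.3), with B-H adjustment over 39429 probes. A call needed an FC above 2.5 and an adjusted p below 0.01. Sequences and figures used Python 3.11.15, pandas 2.3.3 and matplotlib. Precision is limited by having 3 arrays of each tissue.

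All 8 members are named, at every probe, with the brightest probe reported. Of the pathway list, the 5 called genes with the largest FC in each direction are named, with Trhde, Rbp4, Slc16a10, Slco1a4, Dio1, Rxrg, Slc7a5 and Klf9 and the genes of roles with at most 5 measured genes. A gene that this rule chose is not reported here. The members and all lists were chosen with earlier results of these data known. Probe positions are the files' (mm9). RefSeq names (GRCm38.p6) were found for 26055 probes from the accession, for 3195 from the symbol and for 930 from an older symbol, and 9249 kept the file's name. Marker lists of pigment cells, endothelium, Müller glia, red blood cells and inner retina neurons were also read: of their genes 0, 0, 1, 0 and 0 were called higher in RPE than in CH and 3, 0, 0, 0 and 0 higher in CH.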

Additional observations from a re-analysis of the deposited data

How the results depend on the processing

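The number of the 8 genes past both thresholds between RPE and CH, 2 in the report, was 0 with median centring in place of loess, 0 with Cy5 without the reference and 0 in the authors' series table, which held a value for Ttr on 1 of 9 arrays. It was 1 with the slide as a block, 1 with only the 2 tissues compared, 1 with the brightest probe only, and 1 to 3 with an array left out. With the replicate number as a block it was 1. Under the slide block, the replicate block and the brightest probe alone, that 1 gene was Ttr, whose Cy5 was saturated in both tissues. The sources used here do not say whether the replicate numbers pair the samples. Deviations of same-numbered arrays correlated between -0.08 and 0.29, and all 3 correlations of replicate 2, whose arrays shared a slide, were positive (0.16 to 0.29). Between CH and PR the series table gave 3 genes instead of 5. Of the pathway list, 5 genes were called between RPE and CH, 3 in the series table and 13 with a fold change above 2. The other counts stayed within 1.5 times, and leaving out an array gave 4 to 6, 27 to 30 and 30 to 35 pathway genes in the 3 comparisons. No difference past the thresholds changed sign. Of the members' differences under them, CH minus PR of Dio2 (0.14 in the report) lay between -0.14 and -0.05 in 4 alternatives, that of Crym (0.19) between -0.18 and -0.10 in 3, and that of Dio3 was -0.10 without CH replicate 3. At the intron-spanning Thra probe RPE minus CH was -0.02 with median centring in place of 0.21. Between RPE and CH, Slco1a4 lost its call in 7 alternatives, Trhde in 2 and Itgav in 1, and Slc16a10, Slco3a1 and Bcl3 gained one in 2, 2 and 1. The cause of these changes was not tested. Saturation leaves no measured RPE minus CH difference for Ttr.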
